A study of Hermetia illucens with 24 samples.

Results

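Gene expression was compared between black soldier fly (*Hermetia illucens*) larvae kept for 72 h and for 6 h on clean chicken feed, 4 libraries at each time and 8 of the 24 libraries of the study. The 8 libraries are those whose labels give the untreated control at day 5 plus 6 h or day 5 plus 72 h. The study as a whole asked how feed spiked with the mould toxin aflatoxin B1 (AFB1) alters expression after 6, 24 and 72 h, and 4 libraries stand for each of its 6 groups. All larvae were 5 days old when the feeding began, and were reared at 27°C under a long-day light cycle. Each library came from total RNA of 2 whole larvae pooled, so no tissue or cell type is resolved, and fewer cells of a type cannot be told apart from less RNA per cell. The labels mention 5 pools per diet and time, and 4 libraries of each were analysed here. The labels do not say whether the pools of a group came from separate rearing containers, so the p-values rest on the spread between pools, some of which may be technical.

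Fly larvae grow by feeding through a series of instars separated by moults, each set off by a pulse of the steroid hormone ecdysone. Within an instar the gut secretes digestive enzymes, the fat body stores protein and lipid, and the epidermis lays down the cuticle of the next stage. Black soldier fly larvae are known for fast growth on organic waste, and the feeding period compared here falls within that growth. The row names of the count table are NCBI gene numbers with no product name, so the genes of these functions could not be picked out. Genes are therefore given by number, by gene class or, for the mitochondrial genome, by symbol.

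The 4 libraries of 6 h held 14093834, 7774098, 16801286 and 11322290 counts in replicates 1 to 4, and those of 72 h held 8847687, 15581905, 17005321 and 8206419. The 72 h libraries were near repeats of each other. An exact binomial test per gene, adjusted by Benjamini-Hochberg, found a difference in counts at 1.71% of genes between replicates 1 and 4 and at 6.58% between replicates 2 and 3, against 52.8% to 68.9% of genes between any pair of 6 h libraries. The other pairs of 72 h libraries differed at 23.4% to 26.9% of genes, still under every pair of the other groups, the lowest of which was 34.7%. Replicates 1 and 4 were therefore summed to 1 library, and replicates 2 and 3 to another, and each test below counts 2 samples at 72 h. Values of the 4 deposited libraries are still given one by one. Whether the 4 came from the same larvae is not given in the labels.

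Correlations between 6 h and 72 h profiles of clean-fed larvae overlapped those among the 6 h profiles. Gene by gene, all 72 h libraries lay inside the 6 h range for 37% of tested genes, and the groups did not overlap for 19.9%. The narrow spread of the near-repeat 72 h libraries favours both shares, so they are descriptions with no test. Across the 10434 genes tested, Pearson's r of log2 CPM (the count scaled to a fixed library size) between a 6 h and a 72 h library ran from 0.854 to 0.953, with a median of 0.907. Between 2 libraries of 6 h it ran from 0.845 to 0.920, with a median of 0.891, so the 2 ranges overlapped over most of their length. These values are across genes within pairs of libraries, and genes are not independent replicates. Control 6 h replicate 2 stood apart from its group, since its r was 0.956 with the mean of the 72 h libraries and 0.906 with the mean of the other 6 h libraries. The other 3 libraries of 6 h had a higher r with their own group than with 72 h. Between 6 h and 24 h libraries r ran from 0.745 to 0.882 (median 0.812), and between 24 h and 72 h libraries from 0.780 to 0.828 (median 0.816). Of the 24 h libraries, replicates 1 and 4 stood apart, with a higher r to the mean of the AFB1 6 h libraries (0.938 and 0.864) than to that of their own group (0.930 and 0.844). In replicate 4, LOC119646963 held 36.8% of the counts, against 7.12% to 7.92% in the other 3 libraries of 24 h. The median over genes of the SD of log2 CPM within a group was 0.382 at 6 h, 0.643 at 24 h and 0.161 at 72 h.

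**Figure D1:**
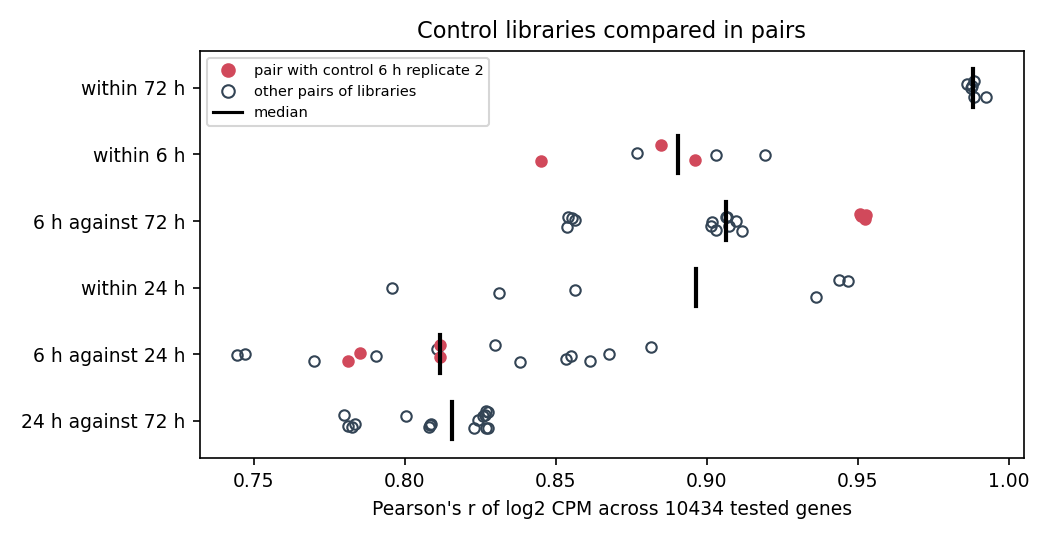
Each point is 1 pair of control libraries, placed by Pearson's r of log2 CPM over 10434 genes, with pairs that hold control 6 h replicate 2 filled and the median of each kind as a vertical line. Pairs of 6 h against 72 h lie between 0.854 and 0.953 and overlap the range of pairs within 6 h, and the 4 pairs of replicate 2 with 72 h lie highest.

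Summary measures of the libraries at both times are given next. LOC119646963, the gene with the highest counts, held 11.4% ± 3.15 (SD, n = 4) of them at 6 h and 13.7% ± 2.18 (SD, n = 2) at 72 h. Genes at 1 CPM or more numbered 9425 ± 50.4 (SD, n = 4) at 6 h and 9428 ± 29.0 (SD, n = 2) at 72 h. Protein genes of the mitochondrial genome took 5.05% ± 0.766 at 6 h and 4.63% ± 0.563 at 72 h, and long non-coding RNA (lncRNA) genes took 0.830% ± 0.163 and 0.863% ± 0.222. Exact two-sided permutation tests over the 15 possible divisions of the libraries gave p = 0.467, 0.733, 0.467 and 0.933 for these 4 measures in that order. The smallest p the design allows is 0.0667, so no difference could have passed 0.05 and the tests do not show that the times were alike. Of the 20 genes of highest mean CPM at each time, 16 were shared, and among these the log2 fold change from 6 h to 72 h was at most 1.28 in size, with a median size of 0.35. Of the 200 highest at each time, 162 were shared.

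No gene passed the test between 6 h and 72 h on clean feed. In edgeR's quasi-likelihood test 0 of 10434 genes had an adjusted p under 0.05 (0% called), and the lowest adjusted p was 0.721. At an unadjusted p under 0.05 there were 375 genes (3.59%), of which 173 (1.66%) were higher and 202 (1.94%) lower at 72 h, and 59 genes (0.566%) had an unadjusted p under 0.01. DESeq2 called 13 genes, 2 higher and 11 lower, and limma voom called 3, all higher. No gene was called by both tools, but DESeq2 gave no adjusted p for 62 genes, of which LOC119658672, called by limma voom, is one. The median log2 fold change over all tested genes was -0.03 and its median size was 0.34. Without control 6 h replicate 2, 1 gene passed and 633 had an unadjusted p under 0.05.

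In the fit of all groups, edgeR called 0 genes whether the near-repeat 72 h libraries were summed in pairs, kept separate or summed to 1, and 880 genes had an unadjusted p under 0.05 with all 4 separate. With all 4 separate and only the 8 libraries of the 2 groups in the fit, an alternative added after the data were seen, it called 507, of which 232 were higher and 275 lower. The same 8 libraries with the near repeats summed gave 2 calls, and 1240 genes had an unadjusted p under 0.05 in edgeR. In the fit of all groups there were 375 such genes. That fit also takes its spread from the 24 h and AFB1 groups, where the median SD of log2 CPM was 0.502 to 0.721. The count at an unadjusted p thus depends on the groups in the fit.

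**Figure D2:**
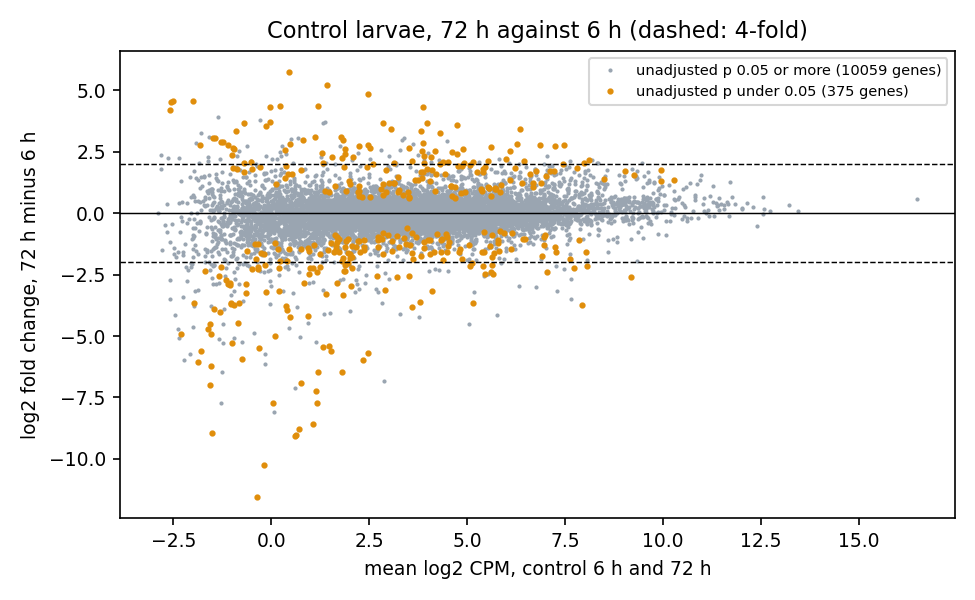
Each point is 1 of 10434 genes, with mean log2 CPM of the control 6 h and 72 h libraries on the x axis, the log2 fold change (72 h minus 6 h) on the y axis and dashed lines at 4-fold in each direction. Coloured points are the 375 genes with an unadjusted p under 0.05, and the lower side reaches farther than the upper among genes of low level.

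The sizes of change that the data can bound differ widely between genes. The 95% interval of the log2 fold change lay within 2-fold in either direction for 1466 genes (14.1%), within 4-fold for 7274 (69.7%) and within 8-fold for 9145 (87.7%), and the distance from the estimate to either bound had a median of 1.17 on the log2 scale. Counts were simulated at these means and depths, with each library drawn independently and the spread of each gene taken from all 6 groups. With 10388 genes in the fit, the test recovered 42% of 100 genes changed 4-fold and 95% of 100 genes changed 16-fold. All were drawn from genes of at least 2 CPM, and the test made 13 false calls. The narrow spread among the 72 h libraries was not copied, so the shares may differ in the data. Genes of low level varied most: with the genes divided into 3 equal groups by mean CPM, 20.6% of the lowest group had an estimate of at least 2-fold, against 7.07% of the middle and 11.4% of the highest. The share at an unadjusted p under 0.05 was 5.20%, 2.44% and 3.13% in the same order.

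**Figure D3:**
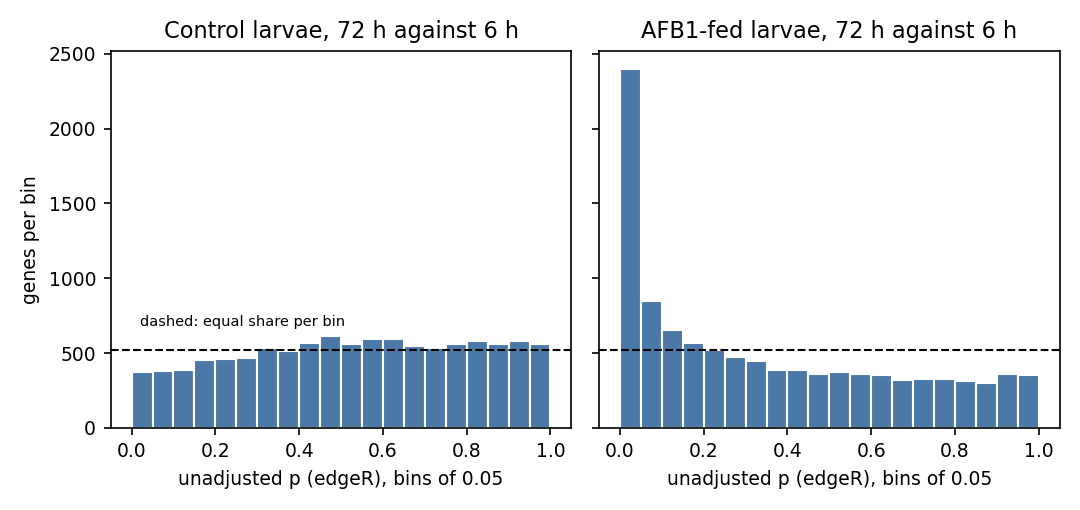
Histograms of unadjusted p-values from edgeR over 10434 genes, in bins of 0.05 with the number of genes on the y axis, for 72 h against 6 h in control larvae (left) and in AFB1-fed larvae (right), with a dashed line at an equal share per bin. The first bin holds 375 genes in control larvae and 2401 in AFB1-fed larvae.

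Estimates of at least 4-fold were found for 357 genes. Of the 138 genes at least 4-fold higher at 72 h, 125 (90.6%) had all 72 h libraries above all 6 h libraries, and of the 219 genes at least 4-fold lower, 49 (22.4%) had all 72 h libraries below all 6 h libraries. Over all tested genes the groups did not overlap for 2073 (19.9%), with 72 h higher for 1183 (11.3%) and lower for 890 (8.53%), and the median size of the log2 fold change among these was 0.72. These counts rest on the 4 deposited libraries of 72 h with their narrow spread, and on genes chosen for a large estimate, so they are descriptions with no test. The directions cannot be set against each other, because 1 library of 6 h at the level of 72 h is nearly enough to keep a gene from being 4-fold higher, and no such limit holds for lower genes. For 145 of the 219 lower genes (66.2%), control 6 h replicate 2 was at or below the highest 72 h library, as were replicate 1 for 19 genes (8.68%) and replicates 3 and 4 for 54 each (24.7%). Most of the genes at least 4-fold lower at 72 h were thus high in some pools of 6 h and as low as at 72 h in at least 1 other pool.

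The genes described next had the lowest p in each direction among genes with a mean log2 CPM of at least 1 and groups that did not overlap, and were chosen after their values were seen. LOC119658672 had 0.278, 12.5, 0.356 and 1.05 CPM at 6 h and 98.5, 89.1, 88.3 and 106 CPM at 72 h. Every 72 h library was above every 6 h library, and replicate 2 was the highest of the 6 h libraries. Its log2 fold change was 4.84 (SE 0.96), with an adjusted p of 0.721 in edgeR's quasi-likelihood test. Without control 6 h replicate 2 the log2 fold change was 7.42, with an adjusted p of 1.83e-05 in edgeR, and over the other alternatives the adjusted p ran from 6.09e-07 to 1.00. The lowest came from limma voom with 4 separate 72 h libraries, which counts near repeats as samples. Limma voom with them summed in pairs gave 0.0001145. At 24 h the 4 control libraries held 4 counts of this gene in all, between 0 and 0.124 CPM, and the 4 AFB1 libraries of 72 h held 2 counts, between 0 and 0.0796 CPM.

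LOC119650947 had 2.13, 2.47, 1.11 and 0.679 CPM at 6 h and 5.84, 7.45, 6.85 and 5.55 CPM at 72 h, a log2 fold change of 2.03 (SE 0.48). The groups did not overlap, and the 24 h control libraries, at 2.76 to 4.57 CPM, lay between them. In AFB1-fed larvae the gene had 2.77 to 9.27 CPM at 6 h and 4.29 to 8.83 CPM at 72 h, so those groups overlapped.

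On the lower side, LOC119646271 had 38.1, 17.4, 16.8 and 13.9 CPM at 6 h and 4.25, 3.48, 3.13 and 3.85 CPM at 72 h. All 72 h libraries were below all 6 h libraries, and replicate 1 was the highest of the 6 h libraries. Its log2 fold change was -2.56 (SE 0.61) on clean feed and 1.32 (SE 0.45) on AFB1 feed. The difference between the diets was -3.88 (SE 0.76), with an adjusted p of 0.0272 in edgeR's quasi-likelihood test. LOC119658960 had 78.2, 58.8, 34.9 and 56.5 CPM at 6 h and 14.5, 12.9, 12.6 and 10.8 CPM at 72 h, again with no overlap. Its change was -2.17 (SE 0.55) on the log2 scale, and in AFB1-fed larvae it was 0.91 (SE 0.41). The adjusted p of LOC119650947, LOC119646271 and LOC119658960 for the change on clean feed was 0.9998 in edgeR. The lowest over the alternatives, 0.000701, 1.88e-05 and 1.36e-05, came from DESeq2 with 4 separate 72 h libraries. That fit counts near repeats as samples and was added after the data were seen. DESeq2 with the libraries summed in pairs gave 0.0812, 0.0111 and 0.0111.

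**Figure D4:**
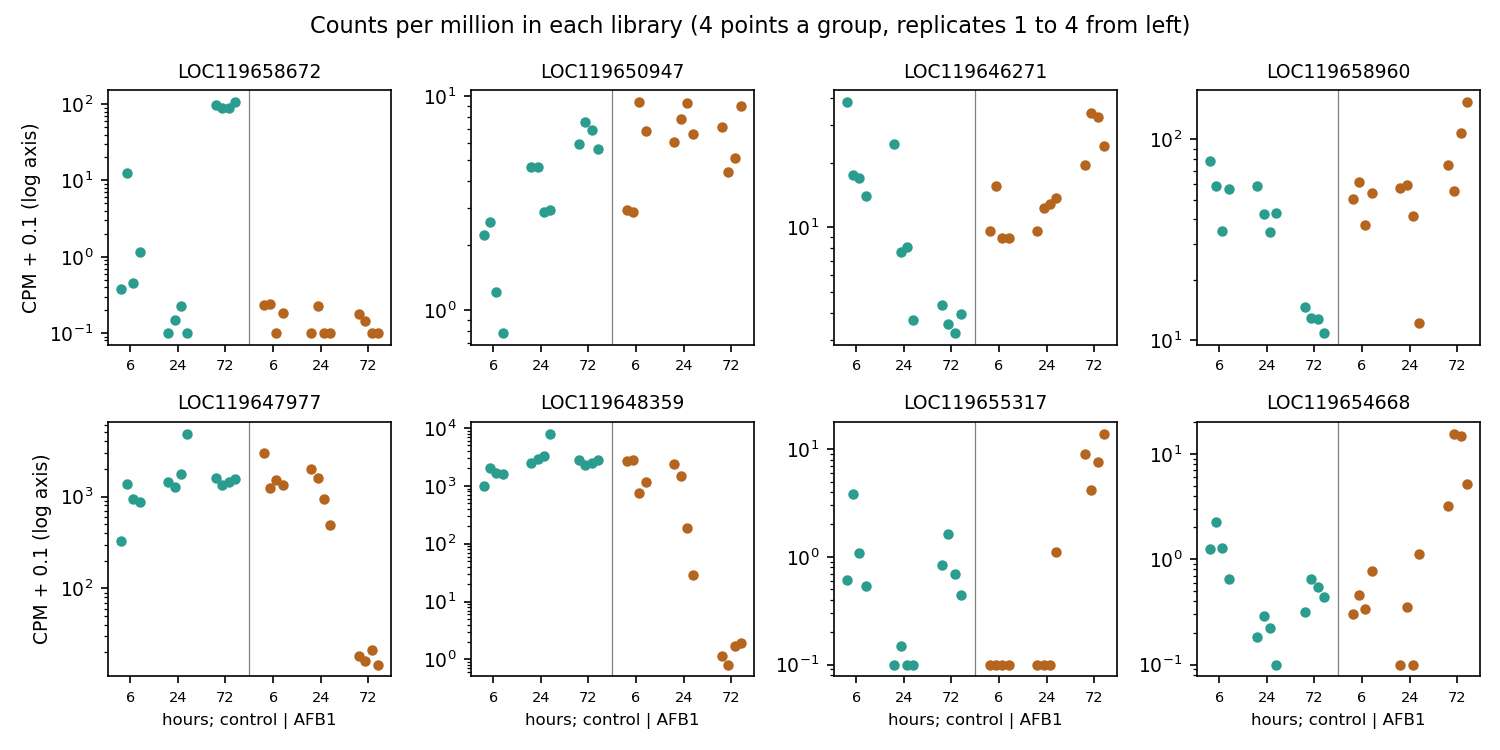
Each panel is 1 gene and each point 1 library, with CPM + 0.1 on a log axis against hours of feeding, control larvae left of the grey line and AFB1-fed larvae right of it. The upper row shows the genes of lowest p for 72 h against 6 h on clean feed, and the lower row those of lowest p for the difference between diets, such as LOC119648359, at 1.30 CPM on average at 72 h on AFB1 feed and at 2585 CPM on clean feed.

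Some genes varied widely among the 6 h pools. Their even level at 72 h is not particular to them, since the 72 h libraries are near repeats of each other over all genes. A range of at least 10-fold among the 6 h libraries, with a highest value of at least 10 CPM, was found for 519 genes (4.97% of those tested). For 363 of them (69.9%) all 72 h libraries fell inside the 6 h range, which a wide range holds more often by its construction. The 6 h library nearest to the 72 h mean was replicate 2 for 220 of the 519 genes (42.4%), replicate 3 for 128 (24.7%), replicate 4 for 114 (22.0%) and replicate 1 for 57 (11.0%). Over all tested genes replicate 2 was nearest for 36.2%, and the other 3 for 18.3% to 23.1%.

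The widest ranges among genes counted in every 6 h library were those of LOC119651273 and LOC119648448, chosen after their values were seen. LOC119651273 had 0.139, 1170, 32.3 and 8.95 CPM at 6 h and 123, 120, 131 and 132 CPM at 72 h. Replicate 2 alone was above the 72 h libraries and the other 3 were below them. The log2 fold change was -1.22 (SE 1.83), and it turned to 3.19 without control 6 h replicate 2. LOC119648448 had 47.8, 0.107, 0.0792 and 471 CPM at 6 h and 10.8, 11.6, 9.49 and 9.28 CPM at 72 h. Replicates 1 and 4 of 6 h were above the 72 h libraries and replicates 2 and 3 below them. Its log2 fold change was -3.67 (SE 2.39) in edgeR, -0.66 in edgeR without control 6 h replicate 4, and 1.13 in limma voom. For genes of this kind a fold change between the times depends on which pools of 6 h are averaged.

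The protein genes of the mitochondrial genome encode subunits of the respiratory chain and of ATP synthase. Of the 13, 12 passed the filter on low counts, and ND2 had no counts. None passed the test (0% of all tested genes did), none had an unadjusted p under 0.05, DESeq2 and limma voom called none, and 9 had a positive log2 fold change. Their median log2 fold change was 0.24, against -0.03 over all tested genes. Transcripts of 1 mitochondrial genome are cut from shared precursors, so these genes are not independent of each other. In AFB1-fed larvae their median was -0.58.

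Genes of cytochrome c oxidase, which passes electrons to oxygen, had estimates smaller in size than their SE. The log2 fold change was -0.10 (SE 0.80) for COX1, -0.04 (SE 0.42) for COX2 and 0.52 (SE 0.62) for COX3. COX1 turned positive without control 6 h replicate 4, and COX2 without control 6 h replicate 2, at 0.19 and 0.071. COX3 had 1123, 2229, 1323 and 1853 CPM at 6 h and 2374, 2375, 2221 and 2331 CPM at 72 h, and replicate 2 of 6 h lay within the 72 h range. CYTB, a subunit of the complex that reduces cytochrome c, had 107, 402, 110 and 295 CPM at 6 h and 471, 304, 153 and 513 CPM at 72 h, with overlapping groups. The estimate for CYTB was 0.66 (SE 1.30) on the log2 scale.

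Among genes of NADH dehydrogenase, the entry complex of the respiratory chain, ND5 was the one mitochondrial gene whose groups did not overlap. It had 753, 866, 990 and 897 CPM at 6 h and 1335, 1723, 1418 and 1290 CPM at 72 h, a log2 fold change of 0.71 (SE 0.88). The log2 fold change was 0.15 (SE 0.45) for ND1, 0.08 (SE 0.45) for ND3, 0.32 (SE 0.88) for ND4 and 0.13 (SE 0.40) for ND4L. For ND6 it was -1.05 (SE 0.66), at 1.90 to 4.32 CPM at 6 h and 0.566 to 2.15 CPM at 72 h, where the highest library lay within the 6 h range.

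The subunits of ATP synthase differed from each other in spread. ATP8 had 6909 to 12060 CPM at 6 h and 8622 to 14050 CPM at 72 h, a log2 fold change of 0.32 (SE 0.42). ATP6 had 1.94, 3.65, 1.23 and 3.21 CPM at 6 h and 21.8, 2.87, 1.79 and 21.7 CPM at 72 h. Replicates 1 and 4 of 72 h were far above the rest, and replicates 2 and 3 lay within the 6 h range, which is the same division as the near-repeat pairs. The log2 fold change of ATP6 was 2.28 (95% interval -0.29 to 4.84). ATP8 and ATP6 overlap in insect mitochondrial genomes, so the values of either are uncertain where reads cover both.

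**Figure D5:**
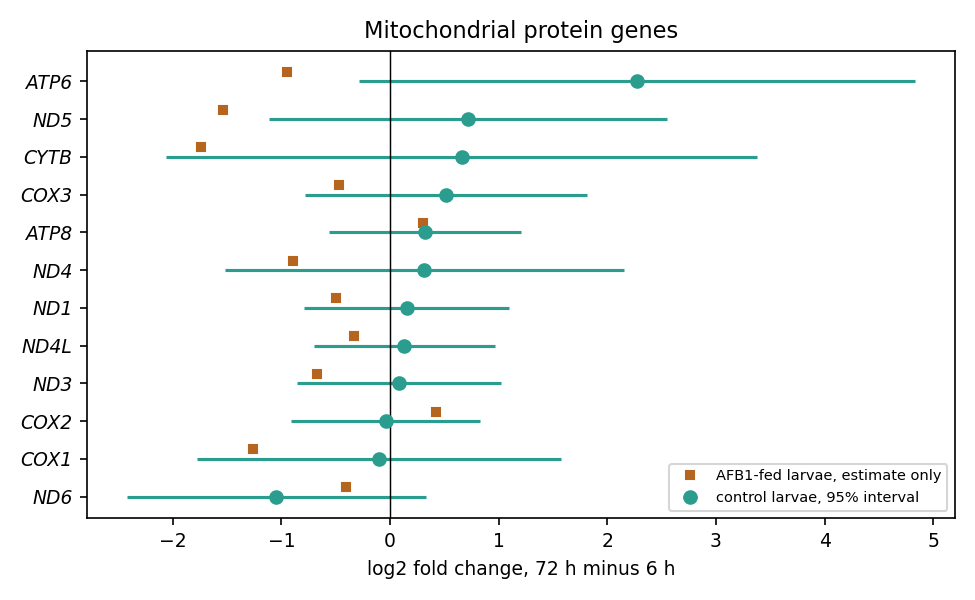
Log2 fold change from 6 h to 72 h of 12 mitochondrial protein genes, with circles and 95% interval lines for control larvae and squares for AFB1-fed larvae. Every control interval includes 0, and 9 of the 12 estimates in control larvae are above 0.

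Among other gene classes, lncRNA genes had a larger median size of estimate than protein-coding genes. Genes of low level had larger estimates in general, and the classes were not compared at like levels. Of 1041 in the table, 192 passed the filter on low counts. Of these 0 passed edgeR's quasi-likelihood test, 13 had an unadjusted p under 0.05 (6.77%, against 3.59% over all tested genes), 11 higher and 2 lower at 72 h, and DESeq2 called 1 and limma voom none. Their median log2 fold change was 0.20, with a median size of 0.73 against 0.34 for protein-coding genes. All 5 tested ribosomal RNA genes had positive estimates, with a median log2 fold change of 1.50, and in AFB1-fed larvae their median was -2.37. Ribosomal RNA genes took 0.0390%, 0.0131%, 0.0246% and 0.00681% of the counts in the 6 h libraries and 0.00864%, 0.122%, 0.0509% and 0.00450% in those of 72 h. Replicates 2 and 3 of 72 h, 1 of the near-repeat pairs, were above all 6 h libraries, and replicates 1 and 4, the other pair, were at the low end of the 6 h range or under it.

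Few genes were counted at only one of the times. Of 15187 named genes, 11929 had a count at both, 2262 at neither, 372 at 72 h alone and 624 at 6 h alone. The 372 genes held at most 21 counts summed over the 72 h libraries, with a median of 1 count. The 624 genes held at most 1530 counts summed over the 6 h libraries, also with a median of 1 count. Of these, 5 and 16 genes passed the filter on low counts, so presence at one time alone was mostly a matter of single reads.

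The 24 h libraries between these ends differed from both. Of 10434 tested genes, edgeR called 337 between 24 h and 6 h (3.23%), 84 higher and 253 lower at 24 h, and 307 between 72 h and 24 h (2.94%), 242 higher and 65 lower at 72 h. These comparisons share libraries with each other and with that of 72 h against 6 h, so their values are set side by side and not tested against each other. The 253 genes lower at 24 h had a median of 32.4 CPM at 6 h, 1.22 CPM at 24 h and 31.6 CPM at 72 h, and a median log2 fold change of -4.48 from 6 h to 24 h and 0.04 from 6 h to 72 h. The 84 genes higher at 24 h had medians of 8.51, 22.3 and 8.82 CPM at the 3 times, and 0.02 as the median log2 fold change from 6 h to 72 h. The 242 genes higher at 72 h than at 24 h had medians of 26.7, 1.30 and 39.9 CPM, and the 65 lower ones 12.0, 24.6 and 5.94 CPM. In each of these sets the median level at 24 h lay outside the levels of 6 h and 72 h. The genes were chosen for a difference that involves 24 h, which favours this, so it is a description with no test. The calls of 24 h against 6 h numbered 214, 110 and 165 without control 24 h replicates 1, 2 and 3, and 217 and 194 without control 6 h replicates 2 and 3. Those of 72 h against 24 h numbered 140, 100 and 149 without control 24 h replicates 1, 2 and 3, and 1161 and 78 with the 72 h libraries kept separate and summed to 1. Without the libraries nearer another group the counts were 166 and 532, and in DESeq2 720 and 765.

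LOC119658672 followed this course, with 4 counts at 24 h. Its log2 fold change was -5.78 from 6 h to 24 h and 10.62 from 24 h to 72 h, and edgeR gave the steps an adjusted p of 0.0106 and of 0.00019. The first step rests largely on control 6 h replicate 2, and in alternatives added after the data were seen, without it the log2 fold change was -3.21, with an adjusted p of 0.0210 in edgeR. Without the libraries nearer another group it was -2.53 and did not pass, with an adjusted p of 0.119. For LOC119646271, at 3.62 to 24.2 CPM at 24 h, neither step passed the test, and its 24 h libraries overlapped those of both other times.

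Over the same interval on AFB1 feed, with no library in common, edgeR called 934 of 10434 genes (8.95%), 450 higher (4.31%) and 484 lower (4.64%) at 72 h, and 2401 (23%) had an unadjusted p under 0.05. The 450 genes had a median log2 fold change of 4.16 on AFB1 feed and 0.12 on clean feed, and 251 of them (55.8%) had a positive estimate on clean feed. The 484 genes had medians of -1.99 and -0.08, and 269 (55.6%) had a negative estimate on clean feed. At 6 h the median level of the 450 genes was 0.872 CPM on AFB1 feed and 14.6 CPM on clean feed. That of the 484 genes was 32.3 CPM on AFB1 feed and 17.7 CPM on clean feed. The choice of genes by their change on AFB1 feed favours such gaps at 6 h. Of all tested genes 50.1% had the same sign on both diets, and Pearson's r of the log2 fold changes across genes was 0.02. At an unadjusted p under 0.05 on clean feed in edgeR, 29 of the 450 went the same way and 12 the opposite way. Of the 484, 32 and 4 did. Over all tested genes 173 (1.66%) were higher and 202 (1.94%) lower at that threshold, and 4970 of 10434 estimates were positive. The 934 calls fell to 476 and 541 without AFB1 6 h replicates 1 and 3, and to 452 without AFB1 72 h replicate 3.

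A call on one diet and not on the other does not show that the diets differ, so the difference itself was tested in the same fit. It passed edgeR's quasi-likelihood test for 27 genes (0.259%), with the log2 fold change larger on clean feed for 22 (0.211%) and smaller for 5 (0.0479%). All 22 were called lower on AFB1 feed, with a median log2 fold change of -6.68, while on clean feed their estimates ran from -0.49 to 1.79 with none at an unadjusted p under 0.05. Of the 5, 4 were called higher on AFB1 feed. The estimates of all 5 on clean feed ran from -2.56 to -0.66, with 1 at an unadjusted p under 0.05. With the 4 libraries of 72 h kept separate the test passed for 303 genes, and with them summed to 1 library for 9. It passed for 41 and 45 genes without AFB1 6 h replicates 3 and 4, and for 89, 16 and 71 without AFB1 72 h replicates 1, 2 and 4.

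The 2 genes of lowest p in each direction were chosen by rank of the difference. LOC119648359 had 982, 2047, 1653 and 1585 CPM at 6 h and 2784, 2328, 2459 and 2767 CPM at 72 h on clean feed, and the groups did not overlap. On AFB1 feed its mean was 1844 CPM at 6 h and 1.30 CPM at 72 h. The log2 fold change was 0.73 (SE 0.95) on clean feed and -10.52 (SE 1.19) on AFB1 feed, a difference of 11.24 (SE 1.41) with an adjusted p of 0.000673 in edgeR. LOC119647977 had 324, 1365, 947 and 878 CPM at 6 h and 1587, 1329, 1448 and 1570 CPM at 72 h on clean feed, where 6 h replicate 2 lay within the 72 h range. Its mean went from 1765 to 17.6 CPM on AFB1 feed, and the difference was 7.44 (SE 0.82) with an adjusted p of 0.000195 in edgeR.

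In the other direction, LOC119654668 had 1.16, 2.15, 1.19 and 0.555 CPM at 6 h and 0.212, 0.552, 0.447 and 0.340 CPM at 72 h on clean feed, with the lowest 6 h library just above the highest of 72 h. Its mean on AFB1 feed went from 0.366 to 9.61 CPM. The difference was -6.29 (SE 1.14), with an adjusted p of 0.0149 in edgeR. LOC119655317 had 0.509, 3.76, 0.990 and 0.432 CPM at 6 h and 0.743, 1.55, 0.596 and 0.340 CPM at 72 h on clean feed, with overlapping groups. On AFB1 feed it had 0 counts in all 6 h libraries and a mean of 8.62 CPM at 72 h, at least 184-fold higher when the 6 h group is set to a floor of 3 counts in all. The difference of these genes no longer passed when the 72 h control libraries were summed to 1, where edgeR gave an adjusted p of 0.187 for LOC119654668 and of 0.128 for LOC119655317. That of LOC119654668 also missed the threshold without the libraries nearer another group, with an adjusted p of 0.0910 in edgeR.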

How the data were processed

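The deposited table holds raw counts per gene, 1 column per library, made by the authors. The submitters' processing notes list STAR, and the authors used DESeq2, per the series' design text. Sources used here give no counter, genome build or strand setting. Of 15197 rows, 1 was empty and 9 named no gene (0.0206% to 0.0288% of the counts of the 8 libraries), and these were left out.

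Counts were fitted with edgeR 4.0.16 in R 4.3.3: filterByExpr over the 6 groups (10434 genes kept), TMM scaling, 1 coefficient per group over 22 libraries (residual df 16, common BCV 0.549) after summing control 72 h replicates 1 with 4 and 2 with 3, two-sided quasi-likelihood tests (robust) and Benjamini-Hochberg adjustment over all genes tested, with a call at 0.05. Libraries were summed where their counts differed at under 10% of genes. These pairs still differed slightly beyond sampling noise, at an unadjusted p under 0.05 for 10.6% and 18.7% of genes. DESeq2 1.42.0 and limma 3.58.1 (voom) were alternatives. CPM used the scaled library sizes. The SE is the size of the log2 fold change divided by the square root of F. Intervals of library counts and floors cover counting error only. The fit was tested on simulated data.

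The comparison, gene lists and tests were chosen with earlier results of these data known. The rule for named genes took called genes of largest change, at most 2 per direction without product names. No gene was called on clean feed, so the genes of lowest p were named after their values were seen. The mitochondrial genes and the 2 genes per direction of lowest p for the difference between diets followed the rule. Planned lists by protein pattern (digestive enzymes, cuticle proteins, cytochromes P450 and others) were not formed, as neither protein sequences nor product names were used here. Gene class and order came from the RefSeq table of assembly GCF_905115235.1.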

Additional observations from a re-analysis of the deposited data

Results flagged for a closer look

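Values of 1 library far from the other 3 of its group were found in 6 of 37 groups of 4 libraries examined. Chance gives about 1 in 20 for independent values with a normal distribution. Most values here are CPM of genes from the same libraries, so the 6 cannot be read as an excess. The measure was the gap to the nearest library as a share of the range, against Dixon's limit at 95%. Control 6 h replicate 2 was the far library for LOC119658672 (12.5 CPM), LOC119655317 (3.76 CPM) and LOC119651273 (1170 CPM), replicate 1 for LOC119646271 (38.1 CPM) and replicate 4 for LOC119648448 (471 CPM). In AFB1-fed larvae it was replicate 1 of 6 h for LOC119647977 (2956 CPM). LOC119651273 and LOC119648448 were chosen for their wide range at 6 h.

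The change from 6 h to 72 h differed between the diets, by a test of the difference in edgeR, for LOC119647977 (7.44 on the log2 scale, clean feed minus AFB1 feed), LOC119648359 (11.24), LOC119655317 (-10.80, a fitted value against a group at 0 counts) and LOC119654668 (-6.29). The differences of LOC119655317 and LOC119654668 did not pass in every alternative.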

How the results depend on the processing

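For 72 h against 6 h on clean feed, 0 genes were called, 0 higher and 0 lower. DESeq2 called 13 (2 higher, 11 lower), limma voom 3 (3 higher), edgeR on only the groups compared 2 (2 higher), on only the control groups 2 (2 higher), and without the 8 libraries nearer another group's mean profile 16 (15 higher, 1 lower). Leaving out 1 control library, or 1 AFB1 library of 6 h or 72 h, at a time gave 0 to 1 calls, the 1 being a higher gene without control 6 h replicate 2. The other planned settings (RLE scaling, no filter, the most abundant gene left out, 72 h libraries separate or summed to 1) gave 0. Added after the data were seen, fits with 4 separate 72 h libraries gave 507 (232 higher, 275 lower) on only the groups compared, 91 (27, 64) in DESeq2 and 34 (29, 5) in limma voom.

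For lncRNA genes, DESeq2 called 1, the fit without the 8 libraries 1, and the 3 added fits 11, 2 and 2. For mitochondrial genes the first added fit called 1, and the other settings 0. The sign of LOC119651273 reversed in limma voom (3.16, and 3.15 with separate libraries), without the 8 libraries (3.20) and without control 6 h replicate 2 (3.19), and over single libraries left out it ran from -1.64 to 3.19. That of LOC119648448 reversed in limma voom (1.13, and 1.11 with separate libraries), and it ran from -4.08 to -0.66 over single libraries left out. COX1 reversed without control 6 h replicate 4 (-0.28 to 0.19 over single libraries left out), and COX2 without the 8 libraries (0.084), control 6 h replicate 2 (0.071) or control 72 h replicate 2 (0.015), from -0.11 to 0.071 over single libraries. The cause was not tested.

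On AFB1 feed the 934 calls became 223 at an adjusted p under 0.01, 1504 in DESeq2 (1721 with separate libraries), 442 in limma voom, 196 on only the groups compared, and 452 to 1101 with 1 library left out. The 27 differences between diets became 8 at 0.01, 303 with separate libraries, 9 with them summed to 1, 322 in DESeq2 (674 with separate libraries), 86 in limma voom with separate libraries, and 16 to 89 with 1 library left out.

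Same-numbered libraries of 6 h and 72 h did not deviate together (correlations of 0.01 to 0.06, 0 of 4 over 0.1). The 72 h libraries are near repeats of each other, so this cannot tell whether the numbers pair samples. With a replicate block and 4 separate libraries, 1 gene was called on clean feed (1 higher), and 205 for the difference. Depth limits genes of low level, and 2 samples at 72 h limit every interval. The protein pattern lists were not run.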

Other observations

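Genes that lie side by side in the RefSeq order of assembly GCF_905115235.1 tended to have like estimates between 6 h and 72 h on clean feed. Pearson's r of the log2 fold change was 0.27 over 10411 pairs of adjacent tested genes and 0.05 over 10348 pairs 10 genes apart. These are descriptions across genes, which share libraries, and reads shared between neighbouring copies of a gene cannot be told apart here. Of 92 adjacent pairs in which both genes had an estimate of at least 4-fold, 81 had the same sign, and 126 of the 356 such genes placed in the order (35.4%) had a neighbour of that kind.

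There were 18 runs of at least 3 adjacent genes, with 72 genes in all, 9 higher and 9 lower at 72 h. In the mean CPM of the run, all 72 h libraries were above all 6 h libraries in each of the 9 higher runs, which the choice of genes at least 4-fold higher nearly forces. In none of the 9 lower runs were all 72 h libraries below all 6 h libraries, and in each of them control 6 h replicate 2 was below every 72 h library. In the longest of the lower runs, with 7 genes, the mean was 29.3, 0.107, 0.0170 and 146 CPM in the 6 h libraries and 0.291 to 0.631 CPM at 72 h, and 26.1 to 175 CPM at 24 h. In another run of 7 genes the 6 h libraries had 19.6, 0.154, 3.16 and 0.529 CPM, and those of 72 h 0.210 to 0.244 CPM. The runs were found with the values in view and carry no test.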
